A study of Mus musculus with 2 samples.

Results

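The ETS and SOX families of transcription factors were examined in CD31+ endothelial cells of normal mouse brain vessels. Members were taken by gene symbol from probe sets annotated to a single gene: Sox, Etv, Elf or Elk followed by a digit, or one of Ets1, Ets2, Erg, Fli1, Fev, Erf, Gabpa, Spib, Spic, Spdef and Ehf. The rule found 44 genes among the 18194 on the array, of which 23 were ETS genes and 21 were SOX genes. The SOX genes included 2 noncoding neighbors, Sox2ot and Sox6os. Fev had 0 annotated probe sets, and 3 probe sets of Etv1 carried the symbol of another gene as well and were left out.

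Both populations came from the brain vasculature of C57BL/6 mice without pathology and were isolated by FACS on CD31, the endothelial adhesion molecule Pecam1, and CD133, the membrane protein Prom1. RNA of CD31+CD133- cells was hybridized to 1 Affymetrix mouse genome array and RNA of CD31+CD133+ cells to another. The sources used here do not state the age and sex of the mice or how many were pooled for an array. With 1 array per population there was no replicate error, so every difference below is a value without a test.

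ETS proteins share a DNA-binding domain that recognizes the core GGAA, and nearly all promoters and enhancers active in endothelium carry such cores. ERG and FLI1 maintain endothelial identity and junctions, ETS1 and ETS2 act downstream of growth factor and ERK signaling, and the ternary complex factors ELK1, ELK3 and ELK4 bind with SRF at immediate early genes. SOX proteins bend DNA at the core ACAAT, and the SOXF group, SOX7, SOX17 and SOX18, directs arterial and lymphatic development and the formation of the blood-brain barrier.

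Promoters were available from RefSeq (GRCm38.p6) for 33 of the 44 genes, in 47 windows of the 250 bases before a start site. The windows of the 3 members with the brightest probe sets among these are printed in the direction of transcription, so that the cores that ETS proteins read, including in the genes of their own family, can be seen. Capitals mark GGAA or its reverse complement TTCC. The window of Elk4 is the first of 3 in the table and also holds 1 match to the longer CCGGAAG.
Ets2, chr16:95702157-95702406, plus strand: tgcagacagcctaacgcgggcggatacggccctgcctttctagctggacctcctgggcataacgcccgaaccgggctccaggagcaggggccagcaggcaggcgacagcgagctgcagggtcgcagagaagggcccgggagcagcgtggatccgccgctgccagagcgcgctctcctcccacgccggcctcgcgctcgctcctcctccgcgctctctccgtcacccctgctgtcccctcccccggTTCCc
Elk4, chr1:132007370-132007619, plus strand: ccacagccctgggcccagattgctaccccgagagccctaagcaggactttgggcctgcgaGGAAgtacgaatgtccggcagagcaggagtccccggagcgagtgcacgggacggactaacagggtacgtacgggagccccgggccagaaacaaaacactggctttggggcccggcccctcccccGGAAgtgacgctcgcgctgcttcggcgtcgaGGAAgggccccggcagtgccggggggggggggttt
Elk3, chr10:93311160-93311409, minus strand: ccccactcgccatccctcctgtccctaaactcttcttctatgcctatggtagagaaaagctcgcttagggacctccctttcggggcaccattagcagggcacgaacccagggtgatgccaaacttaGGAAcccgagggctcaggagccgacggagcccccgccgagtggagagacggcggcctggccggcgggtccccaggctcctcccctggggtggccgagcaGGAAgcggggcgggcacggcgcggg

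Both strands were searched. GGAA was found in 42 of the 47 member windows (89.4%) and in 93.4% of all 32851 windows, so the short core did not set the members apart. CCGGAAG, which contains GGAA, was found in 3 member windows (6.38%), of Elk4, Gabpa and Sox21, against 6.91% of all windows. ACAAT was found in 21.3% of member windows and 27.7% of all. AACAATG, which contains ACAAT, was found in 2 member windows (4.26%), of Erg and Sox6, against 3.29% of all. No entry was matched for Ehf, Ets1, Etv4, Fli1, Sox10, Sox17, Sox18, Sox2ot, Sox3, Sox7 and Sox9.

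Signals are given as multiples of the median of their array, the CD31+CD133- value first. The brightest probe set stood for a gene, and a gene counted as measured when it reached a floor of 1.67 times the median on at least 1 array. Where 1 signal lay under the floor, it was raised to the floor and the fold is a bound. Different probe sets hybridize with different strength, so signals of different genes were not ranked.

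The signal of the sort marker was not higher in the array labelled CD133+. The array labelled CD133- gave Prom1 a signal of 196 times the median and the array labelled CD133+ one of 159 times, a log2 ratio of -0.30, and directions below are those of the labels only. Pecam1 was at 48.2 and 69.2 times the median, and Cdh5, the cadherin of endothelial junctions, at 19.8 and 33.8 times. The shift between the arrays depended on brightness. The median log2 ratio rose from 0.47 for probe sets with a mean log2 signal of 1 to 2 to 0.87 for 3 to 4. It then fell to 0.61 for 5 to 6 and -0.23 for 7 to 8. Each gene was therefore also placed among the 1000 probe sets nearest to it in mean signal, and a loess fit removed the shift. Prom1 had a mean log2 signal between 7 and 8. Its log2 ratio of -0.30 lay near the median of -0.23 for that range. Against probe sets of similar brightness, Prom1 was thus about level between the arrays. The 24 measured members were read under 6 scalings: the deposited values, equal pan-endothelial medians, equal hybridization controls, equal trimmed means, quantile normalization and loess. Under these the median log2 ratio of all measured genes lay between 0.04 after loess and 1.67 with equal hybridization controls.

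Markers of other brain cells also differed between the arrays. The summed signal of 14 mural cell markers was 1205 in the array labelled CD133- and 398 in the array labelled CD133+, and 12 of the 14 were at least 2-fold lower in the latter. Microglial markers summed to 265 and 115, with 9 of 14 lower and Spi1 and Itgam under the floor on both arrays, and fibroblast and meningeal markers to 367 and 64.9, with 5 of 10 lower. Oligodendrocyte markers summed to 444 and 221, with 2 of 10 lower, 1 higher, and Mag, Ugt8a and Sox10 under the floor. The 6 endothelial markers summed to 774 and 703, but 4 had ratios above 0 and 2 below. Their median log2 ratio was 0.33, and 0 passed 2-fold. The part of these cells in the ratios of the members was not tested, and in sorted bulk RNA fewer cells of a type and less RNA per cell cannot be told apart.

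Of the 44 genes, 24 (54.5%) reached the floor, against 10793 of 18194 genes (59.3%) on the whole array. Of the 23 ETS genes, 14 were above it on both arrays and 9 on neither. Among the 21 SOX genes, both signals passed it for 6, a single signal for 4 and neither signal for 11. The probe sets of Ets1, Ets2, Fli1, Elk3, Elk4, Erf, Etv3, Sox7, Sox17 and Sox18 each stood at over 40 times the median on both arrays.

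**Figure D1:**
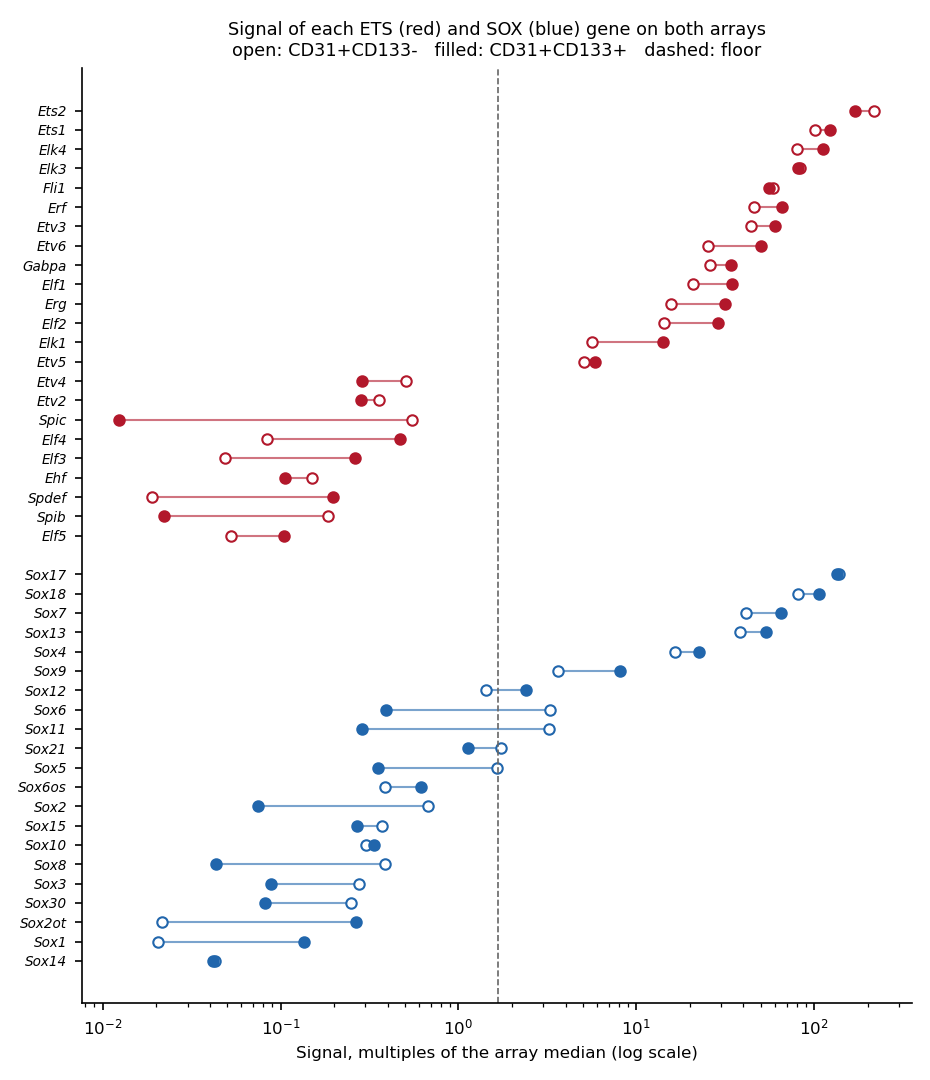
Signal of each of the 44 genes on the CD31+CD133- array (open) and the CD31+CD133+ array (filled), in multiples of the array median on a log axis. The dashed line is the floor of 1.67. The ETS genes form a group above the floor and a group under it, whereas 4 SOX genes lie across it.

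Of the 24 measured members, 4 (16.7%) were higher by 2-fold or more in the array labelled CD133+, Elk1, Sox9, Elf2 and Erg, against 28.2% of all measured genes. At least 2-fold lower were 0 of 24, against 4.77% of all. After loess, 0 of 23 members were 2-fold higher and 0 were 2-fold lower, against 5.55% and 7.87% of all genes. The median log2 ratio of the measured members was 0.44, beside 0.66 for all measured genes, and after loess it was 0.00 beside 0.04. Once the shift with brightness was removed, the members thus centered where all genes did. Among the 14 ETS genes measured on both arrays, 7 were above and 7 below the median of their neighbors in signal, and for SOX these were 3 and 3.

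**Figure D2:**
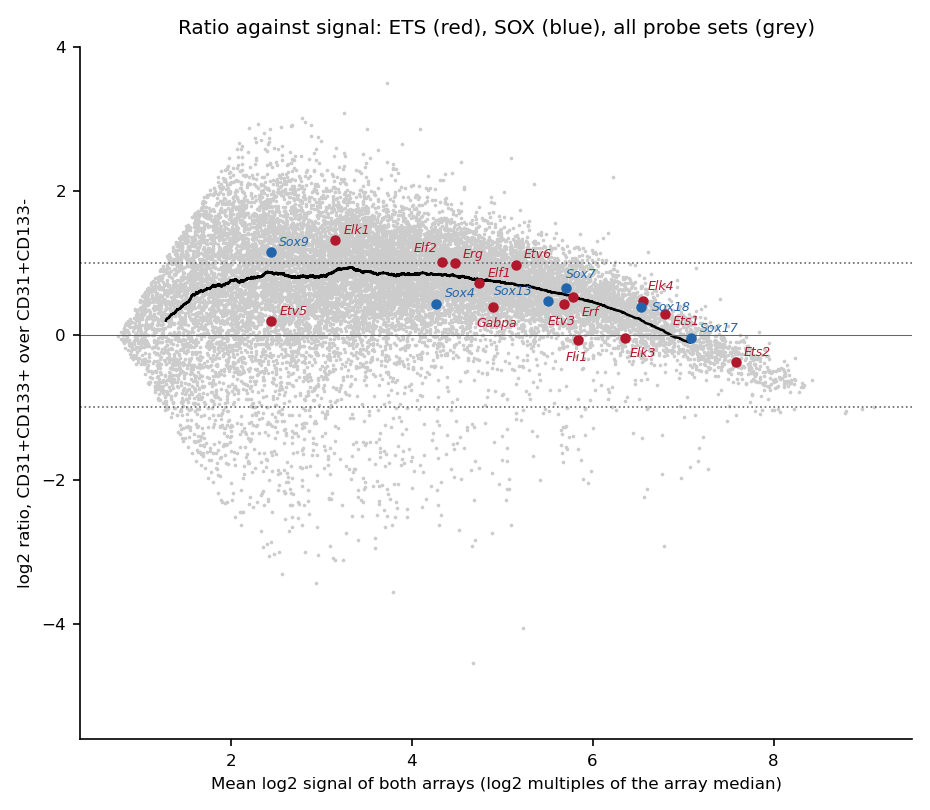
log2 ratio of CD31+CD133+ over CD31+CD133- against the mean log2 signal of both arrays, for all probe sets that passed the floor on each array (grey), ETS genes (red) and SOX genes (blue). The black line is the running median, and dotted lines mark 2-fold. The running median rose among the dimmest probe sets and declined with brightness above a mean log2 signal of about 4. Fli1 and Etv5 lay under the line while Elk1 lay over it.

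Erg and Fli1, the closest pair of endothelial ETS genes, differed in ratio. Erg was at 15.7 and 31.5 times the median, 2.01-fold higher in the array labelled CD133+, and its log2 ratio was positive in all 6 scalings (0.19 to 2.06). It stood at percentile 66.3 of its neighbors in signal. A second Erg probe set was at 7.67 and 29.0 times the median, 3.78-fold higher, at percentile 98.3. Fli1 was at 58.5 and 55.7 times the median, a log2 ratio of -0.07 that was positive in 1 of the 6 scalings (-0.61 to 0.99), and stood at percentile 6.5. Its second probe set was at 10.7 and 13.5 times, a log2 ratio of 0.34 that was -0.54 after loess, at percentile 20.5. The ratio of Erg exceeded that of Fli1 by 1.08 on the log2 scale as deposited and by 0.76 after loess. A scaling that shifts all genes alike leaves such a difference as it is, so it could vary with quantile normalization and loess alone. Both Erg probe sets had higher ratios than both Fli1 probe sets. For scale, log2 ratios of probe sets of the same gene had an SD of 0.54 over 3930 genes, as deposited. This spread takes in the shift with brightness and says nothing of the spread between mice. It is that of single probe sets, and a difference between genes would spread more.

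Ets1 and Ets2 encode ERK-responsive activators. Ets1 was at 101 and 123 times the median, a log2 ratio of 0.29 that was positive in 5 of 6 scalings (-0.25 to 1.35). Its other 3 probe sets on both arrays gave log2 ratios of 0.26 to 0.75 as deposited and of -0.43 to 0.07 after loess. Ets2 was at 218 and 169 times the median, a log2 ratio of -0.37 that was positive in 1 of 6 scalings (-0.91 to 0.69) and -0.04 after loess. A dimmer Ets2 probe set, of a type that can share probes with other transcripts, was at 5.62 and 13.2 times, 2.35-fold higher, so the probe sets of Ets2 disagreed. The ratio of Ets1 exceeded that of Ets2 by 0.66 as deposited, by 0.24 after quantile normalization and by 0.26 after loess.

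Erg and Ets2 lie next to each other in the mouse genome with 0 protein-coding genes between them in RefSeq order, as do Fli1 and Ets1, and Ehf and Elf5. As deposited, the log2 ratios were 1.01 for Erg and -0.37 for Ets2, but after loess they were 0.19 and -0.04, closer than the SD of 0.54, and the dimmer Ets2 probe set had a ratio of 1.23. Those of Fli1 and Ets1, -0.07 and 0.29, lay within that SD of each other as deposited, and were -0.58 and 0.21 after loess. Ehf and Elf5 were both under the floor.

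The ternary complex factors were measured in full. Elk1 was at 5.63 and 14.1 times the median, 2.50-fold higher and positive in all 6 scalings (0.42 to 2.37), at percentile 77.4 of its neighbors. Its second probe set was at 1.96 and 2.92 times, 1.49-fold higher. The mean over all Elk1 probe sets, the dimmest at 0.238 and 0.122 times, ended the call. That mean was under the floor in the array labelled CD133- and was raised to it, so its log2 ratio of 0.03 is a bound. Elk4 was at 79.8 and 112 times, a log2 ratio of 0.48 that was negative in 1 of 6 scalings (-0.06 to 1.54), at percentile 82.5. A dim Elk4 probe set passed the floor in the array labelled CD133+ only, at least 2.89-fold higher.

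Elk3, whose product (also called NET) represses transcription until phosphorylated by ERK, gave values that depended on the probe set. The brightest was at 83.4 and 80.9 times the median, a log2 ratio of -0.04 that was positive in 1 of 6 scalings (-0.59 to 1.01), at percentile 12.4. Another was at 20.4 and 55.9 times, 2.75-fold higher, at percentile 98.5. A further one was at 11.1 and 27.5 times, 2.48-fold higher, at percentile 82.9. The dimmest was at 0.264 and 5.85 times, at least 3.49-fold higher. The 2-fold rule therefore did not count Elk3 by its brightest probe set but did so when all its probe sets were averaged. That average used the signals as they were, without raising the 0.264 of the dimmest probe set to the floor.

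**Figure D3:**
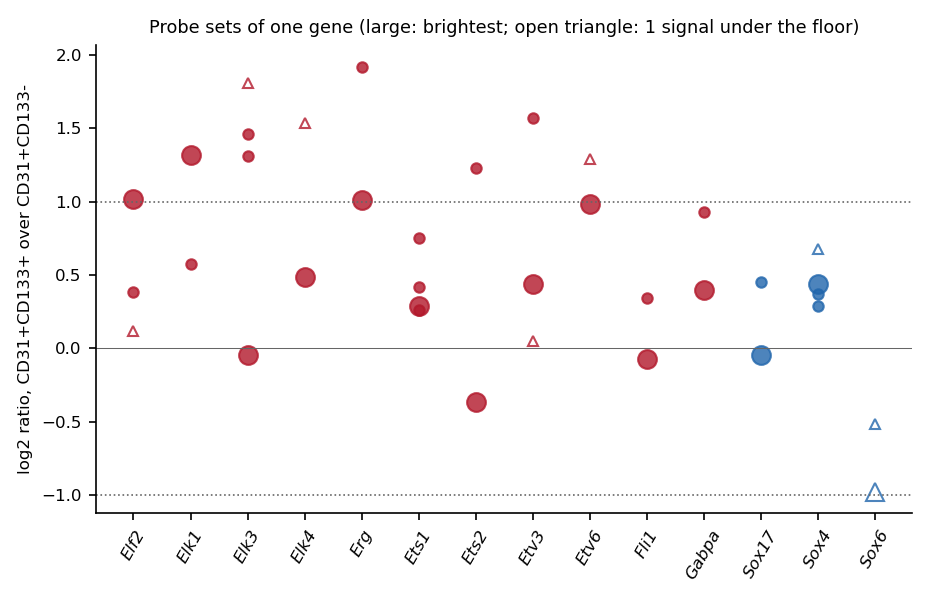
log2 ratio of CD31+CD133+ over CD31+CD133- for every probe set that reached the floor, for the member genes with more than 1 such probe set. Large symbols are the brightest probe set, open triangles have 1 signal raised to the floor, and dotted lines mark 2-fold. Elk3, Ets2 and Etv3 spread the most.

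Over the 35 member probe sets that passed the floor on each array, 9 (25.7%) were at least 2-fold higher and 0 at least 2-fold lower, against 29.2% higher among 15666 probe sets of all genes. In 7 of the 11 member genes with several such probe sets (63.6%) the brightest had the lowest ratio, as in 1903 of 3930 genes (48.4%) on the array.

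Elf1 and Elf2 encode activators also used by blood cells. Elf2 was at 14.2 and 28.8 times the median, 2.02-fold higher and positive in all 6 scalings (0.17 to 2.07). Its second probe set was at 11.3 and 14.7 times, a log2 ratio of 0.38 that was -0.49 after loess. Elf1 was at 20.9 and 34.5 times, a log2 ratio of 0.72 that was negative after loess alone (-0.05 to 1.78). Elf4 did not reach the floor.

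The ETS repressors included Etv6, just inside 2-fold. Etv6 (TEL) was at 25.3 and 49.9 times the median, 1.98-fold higher and positive in all 6 scalings (0.29 to 2.04), at percentile 79.4, and a dim probe set was at least 2.44-fold higher. Erf was at 45.8 and 66.0 times, a log2 ratio of 0.53 that was negative in 1 of 6 scalings (-0.02 to 1.58), at percentile 50.3. Etv3, an ERF relative, was at 44.1 and 59.8 times, a log2 ratio of 0.44 that was negative in 3 of 6 scalings (-0.12 to 1.49). Its probe sets disagreed, since a dimmer one was at 3.18 and 9.44 times, 2.97-fold higher.

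Gabpa, the DNA-binding subunit of the GABP complex that drives mitochondrial and housekeeping promoters, was at 25.9 and 34.2 times the median. Its log2 ratio of 0.40 was negative in 3 of 6 scalings (-0.35 to 1.45). A second probe set was at 5.56 and 10.6 times, 1.91-fold higher. Etv5, the PEA3 group gene induced by FGF and ERK signaling, was at 5.10 and 5.85 times, a log2 ratio of 0.20 that was negative in 3 of 6 scalings (-0.67 to 1.25). Its ratio of -0.67 after loess was the lowest of the ETS genes measured. Etv4 of the same group was under the floor.

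The 3 SOXF genes were measured on both arrays and differed by less than 2-fold. Sox17, the arterial SOXF factor, was at 138 and 134 times the median, a log2 ratio of -0.04 that was positive in 3 of 6 scalings (-0.59 to 1.01). That probe set is of a type that can share probes with other transcripts, and the second Sox17 probe set was at 28.1 and 38.5 times, a log2 ratio of 0.46 that was -0.26 after loess. Sox18 was at 80.9 and 106 times, a log2 ratio of 0.39 that was negative in 1 of 6 scalings (-0.15 to 1.45). Sox7 was at 41.5 and 65.4 times, 1.58-fold higher and positive in all 6 scalings (0.10 to 1.71). They stood at percentiles 44.7, 70.3 and 63.3 of their neighbors in signal. The ratio of Sox7 exceeded that of Sox17 by 0.70 as deposited, but by 0.07 after loess, below the SD of 0.54 between probe sets of a gene.

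**Figure D4:**
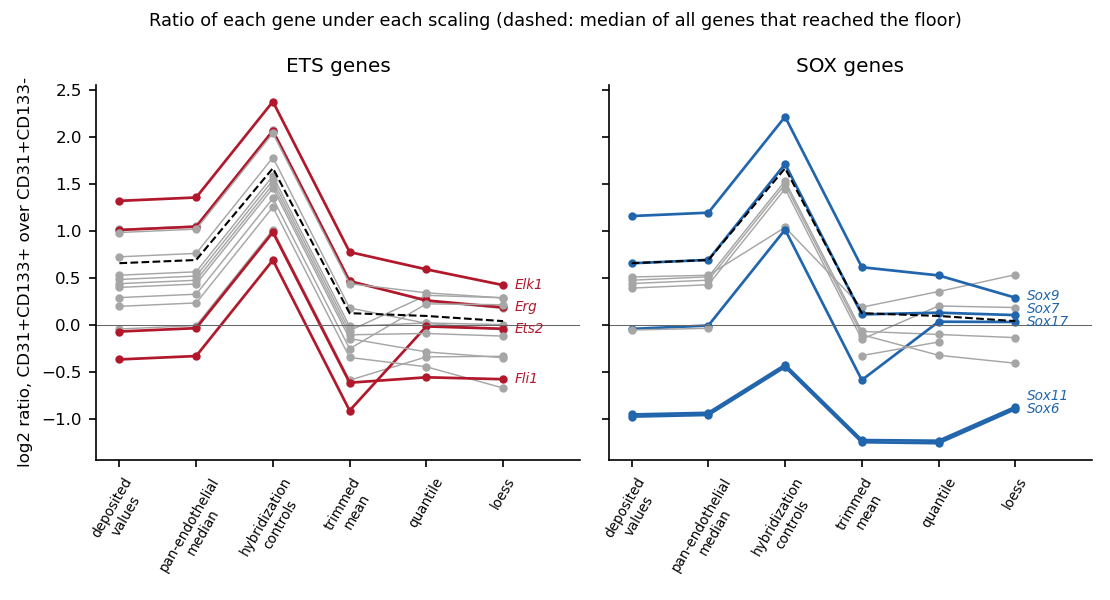
log2 ratio of CD31+CD133+ over CD31+CD133- for each measured ETS gene (left) and SOX gene (right) under 6 scalings, with the median of all measured genes dashed. Named genes are drawn in color. Elk1, Erg, Sox7 and Sox9 lay above 0 under all 6, while Fli1, Ets2 and Sox17 crossed it. Sox6 and Sox11 are bounds with 1 signal raised to the floor, whose sign is fixed.

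Sox13, a SOXD gene also used by T cells, was at 38.5 and 53.6 times the median, a log2 ratio of 0.48 that was negative in 3 of 6 scalings (-0.13 to 1.53). Sox4, a SOXC factor of progenitors and endothelium, was at 16.6 and 22.5 times, a log2 ratio of 0.44 that was negative in 3 of 6 scalings (as low as -0.41, after loess). The other Sox4 probe sets on both arrays were 1.22-fold and 1.29-fold higher as deposited, with log2 ratios of -0.55 and 0.37 after loess. Sox12, another SOXC gene, was at 1.44 and 2.39 times, at least 1.42-fold higher, and passed the floor in the array labelled CD133+ alone.

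Sox9, a SOXE factor of astrocytes and neural progenitors, was at 3.64 and 8.11 times the median, 2.23-fold higher and positive in all 6 scalings (0.29 to 2.21), at percentile 64.7. Its other probe sets reached at most 0.875 and 0.170 times and were under the floor on both arrays, so the call rested on the brightest alone. The astrocyte markers, among which Sox9 was listed, summed to 120 and 134, with 2 of 11 higher, 1 lower, and Gfap, Aqp4 and Aldh1l1 under the floor on both arrays. Sox10 and Sox8 of the same group were under the floor.

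Sox6, Sox11 and Sox21, which are known from neural cells, passed the floor in the array labelled CD133- alone, which fixes the sign of their ratios, and only the size of a bound could vary with the scaling. Sox6, a SOXD factor of oligodendrocyte precursors, was at 3.29 and 0.389 times the median, at least 1.97-fold lower, and the bound lay between -1.26 and -0.45 on the log2 scale over the 6 scalings. Its second probe set was at 2.40 and 1.28 times, at least 1.43-fold lower. Sox11, a SOXC factor of newborn neurons, was at 3.24 and 0.287 times, at least 1.93-fold lower, with a bound of -1.23 to -0.42. The other Sox11 probe sets were under the floor on both arrays. Sox21, which opposes the SOXB1 factors, was at 1.74 and 1.14 times, at least 1.04-fold lower, and was under the floor on both arrays after loess and with equal hybridization controls.

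Neural markers differed beside these genes. Oligodendrocyte precursor markers summed to 14.3 and 7.41, with 2 of 9 measured and Gpr17, Olig1, Olig2, Sox10, C1ql1, Lhfpl3 and Vcan under the floor. The 2 went opposite ways. Cspg4, listed among the mural markers as well, had a log2 ratio of -2.22. Pdgfra, listed among the fibroblast markers as well, had one of at least 0.74. Neuronal markers, among which Sox11 was listed, summed to 70.4 and 81.6, with 5 of 11 measured. Of these 5, with Sox11 among them, 4 had ratios below 0, 2 of them past 2-fold. The median log2 ratio, -0.95, was the bound of Sox11 itself. The higher sum came from Stmn2, at 45.1 and 79.5 times. Tubb3, Rbfox3 and Dcx were among those under the floor. Whether such cells contributed to Sox6, Sox11 and Sox21 was not tested.

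The remaining 20 members were under the floor on both arrays, so no fold is given. Their values are the higher signal of the probe set that stood for the gene. Among the ETS genes the highest signal was 0.547 times the median for Spic, a macrophage gene, 0.510 for Etv4, 0.467 for Elf4 and 0.359 for Etv2, the factor that starts the embryonic endothelial program. The epithelial genes Elf3, Spdef, Ehf and Elf5 were at most at 0.262, 0.197, 0.150 and 0.105 times, and Spib, a B cell gene, at 0.185. Another Elf5 probe set reached 0.144. Spi1, the macrophage ETS gene outside the rule, was at 0.886 and 0.307 times.

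Among the SOX genes the neural stem cell genes Sox2, Sox3 and Sox1 were at most at 0.672, 0.275 and 0.136 times the median and the oligodendrocyte gene Sox10 at 0.334. Another Sox10 probe set reached 0.558. Sox5 came closest to the floor, at 1.65 times in 1 array. The others were Sox6os at 0.619, Sox8 at 0.386, Sox15 at 0.371, Sox2ot at 0.265, Sox30 at 0.248 and Sox14 at 0.0431. Control probe sets for Bacillus transcripts, absent from mouse, reached 0.276 and 0.234 times the median on the 2 arrays, and 8 of these 20 genes lay within that range on both.

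Genes that ETS and SOX factors are known to act on were followed in lists. Of 25 endothelial genes with known ETS-driven promoters or enhancers, 25 were measured, and 4 were at least 2-fold higher and 0 lower (28.2% and 4.77% of all genes). The 4 were Nos3, the endothelial nitric oxide synthase, at 24.1 and 51.8 times the median, the hematopoietic and endothelial factor Tal1 at 2.24-fold higher, the apelin receptor Aplnr at 25.0 and 52.5, and Erg itself. The brightest probe sets were lower or level as deposited, with the tight junction gene Cldn5 at 326 and 219, the VEGF receptor Flt1 at 229 and 172, and Egfl7 at 198 and 198, while after loess the log2 ratio was -0.06 for Flt1 and 0.35 for Egfl7. The list had a median of 0.32 (-0.22 to 1.37 over the scalings), and its counts ran from 0 to 18 higher and from 0 to 1 lower, with 0 and 0 after loess.

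Of 20 genes known as targets of SOX7, SOX17 or SOX18, 17 were measured, 2 were higher and 1 was lower (28.2% and 4.77% of all genes). The 3 genes past 2-fold were the adhesion molecule Vcam1 at 25.9 and 63.3 times the median, the Notch ligand Dll4 at 6.06 and 12.8, and Hey2, a Notch target also expressed in arterial smooth muscle, at 47.9 and 13.2. Mural markers were lower in the same direction as Hey2, and their part in it was not tested. The median of these targets was 0.22 as deposited, beside 0.66 for all genes. Over the scalings it ran from -0.32 to 1.28, the number of higher targets from 0 to 11 and that of lower targets from 0 to 5. After loess the balance turned, as it did for all genes (5.55% higher and 7.87% lower), and 0 targets were higher and 4 lower. These 4 were Hey2 at a log2 ratio of -2.66, the gap junction gene Gja4 at -1.60, the venous factor Nr2f2 at -1.39 and the chemokine receptor Cxcr4 at -1.06. The part of mural cells in these 4 was not tested.

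Of 12 measured immediate early genes with SRF and ternary complex factor sites, Junb alone passed 2-fold, at 11.9 and 28.9 times the median. Egr1 was at 251 and 181 times, Dusp1 at 234 and 175 and Fos at 234 and 150. The list median was 0.03 (-0.52 to 1.08 over the scalings). Of the 11 ERK feedback genes expressed with Etv4 and Etv5, 9 were measured and 0 passed 2-fold in either direction, with Ccnd1 at 43.4 and 64.4 times, Dusp6 at 41.9 and 45.3 and Spred1 at 22.4 and 29.4, and a median of 0.30 (-0.51 to 1.36).

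The partners with which these factors bind DNA were also read. Of 7 measured ETS partners, Gabpb2, a partner subunit of GABPA, passed 2-fold at 7.98 and 17.2 times the median. The others included Crebbp, a coactivator, at 81.0 and 77.8, Gabpb1 at 33.2 and 50.7 and Cbfb at 31.3 and 50.4, and the list median was 0.56 (-0.26 to 1.64). Of 9 listed SOX partners and Wnt effectors 5 were measured and 0 passed 2-fold, with Ctnnb1 at 248 and 182, Lef1 at 143 and 103 and Rbpj at 28.3 and 36.5, and a median of 0.09 (-0.45 to 1.15).

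Of 36 measured transcription factors of endothelium from other families, 6 were higher (Tshz2, Lyl1, Tal1, Foxo1, Ppard and Nfatc1) and 3 lower (Foxc2, Heyl and Nr2f1), with a median of 0.16 (-0.38 to 1.22). The 3 brightest probe sets were those of Epas1 at 263 and 191 times the median, Klf6 at 189 and 151, and Gata2 at 149 and 146. The shares of all genes were 28.2% and 4.77%. Mural, fibroblast and meningeal markers were also lower in the array labelled CD133+, and their part in the 3 lower factors was not tested. After loess 1 of these factors was higher and 4 were lower, with equal trimmed means 1 and 6, and with equal hybridization controls 27 and 1.

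**Figure D5:**
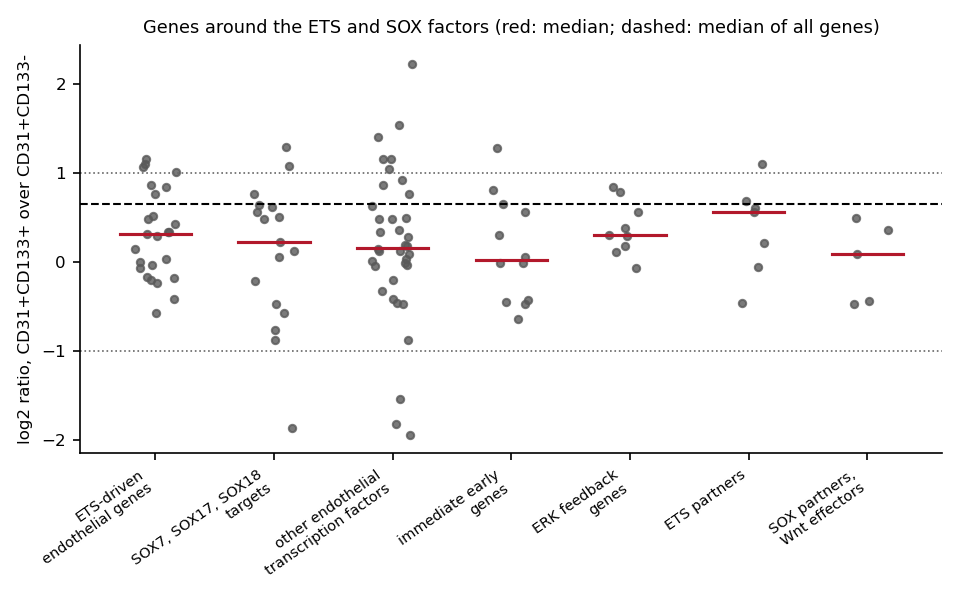
log2 ratio of CD31+CD133+ over CD31+CD133- for each measured gene of 7 lists of targets, partners and other factors, with the list median in red, the median of all measured genes dashed and 2-fold dotted. All 7 list medians lay under the median of all measured genes, 0.66, as deposited. After loess that of the ETS-driven genes, 0.10, lay above the median of all measured genes, 0.04, and the others under it.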

How the data were processed

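Total RNA was extracted with a column kit, amplified, labeled with biotin and hybridized to the arrays, and the authors set the arrays to a common target of 500 before normalizing. MAS5 is named in the submitters' processing notes without a version. Each deposited value is a log2 ratio of a signal to its array's median. Detection calls are not used here. Of 45101 probe sets, 34958 had 1 gene symbol, 932 had several and were left out, and 9211 were not listed in the platform annotation. All 44 members were found by identifier in a RefSeq table.

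The deposited log2 values were raised to powers of 2 to give multiples of the array median. The floor, 100 on the target scale of 500, came to 1.67 times the median, using the average 2% trimmed mean of the pair of arrays. A gene was called at a fold of at least 2. The loess fit of ratio against mean log2 signal had a span of 0.2. The number of arrays, 2, limits the precision, and no p-value was made. Genes near background could not be compared.

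The members, lists and pairs were chosen with earlier results of these data known. Every member that reached the floor was given values, with its other probe sets where their ratios disagreed by over 2-fold. The rest were given the highest signal of their brightest probe set. At most 3 genes with the brightest probe sets were named from a list, and the others named from the lists were chosen after their values were seen. Other settings tried were no floor, floors of 50 and 200, folds of 1.5 and 3, the 5 other scalings, the mean over probe sets, and leaving out probe sets that may cross-hybridize. The B and T lymphocyte list had 0 of 7 genes at the floor, the neural stem and ependymal list 2 of 8 (summed signal 76.2 and 81.5), the platelet and erythroid list 4 of 6 (12.7 and 11.7), and the pan-endothelial list 24 of 24 with a median of -0.04. The scripts were tested on simulated data. The work was done in Python 3.11.15 with statsmodels 0.14.6, scipy 1.17.1, pandas 2.3.3, numpy 2.4.6 and matplotlib 3.10.9.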

Additional observations from a re-analysis of the deposited data

How the results depend on the processing

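The count of 4 members at least 2-fold higher became 10 of 44 with no floor (28.2% of all genes) and 7 of 24 at 1.5-fold (54.6%). It was 19 of 23 with the hybridization controls set equal, where 80.2% of all genes passed. It became 0 at 3-fold (6.60% of all genes), with equal trimmed means (8.08%), after quantile normalization (6.38%) and after loess (5.55%). The count of 0 members at least 2-fold lower became 9 of 44 with no floor (18.6% of all genes). It became 2 at 1.5-fold (7.55%), with a floor of 50 (6.89%), with equal trimmed means (7.91%) and after quantile normalization (7.79%). These 2 were Sox6 and Sox11 in each of the latter 4 settings. The median log2 ratio of the ETS genes, 0.46, was -0.083 with equal trimmed means, -0.019 after loess and 1.52 with the hybridization controls set equal. That of the SOX genes, 0.42, was -0.042 with no floor, -0.15 with equal trimmed means, 1.45 with equal hybridization controls and -0.10 after quantile normalization. Equal trimmed means and hybridization controls subtract 0.54 and -1.06 from the log2 ratio of every gene measured on both arrays. With no floor, members under the floor counted too, with Elf3, Elf4, Elf5, Sox1, Sox2ot and Spdef among the 10 higher. A floor of 50 lowered the bounds of Sox6 and Sox11, and other folds moved the threshold itself. The cause of the remaining changes was not tested. Of 228 values of single genes under the alternatives, 156 moved by less than the SD between probe sets of a gene and 72 by more. Much of this split was fixed by the settings. Equal trimmed means and equal hybridization controls moved every gene measured on both arrays by more than that SD, and other floors moved none of those genes. The split therefore does not measure robustness. The remaining settings gave counts within 1.5 times and medians within that SD. With the mean over all probe sets, however, the 4 higher genes were Elf2, Elk3, Erg and Etv6, of 18 measured, in place of Elk1, Sox9, Elf2 and Erg. In that mean, signals of single probe sets were not raised to the floor. No paired analysis was possible because each population had 1 array. No replicate could be left out for the same reason. Genes under the floor have only an upper bound.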
